A study of Mus musculus with 24 samples.

Results

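The subunits of the mitochondrial oxidative phosphorylation chain were followed in mouse lung RNA from 24 Affymetrix arrays. A gene was taken as a member when its annotated symbol named a subunit of complex I (Nduf), complex II (Sdh), complex III (Uqcr and Cyc1), complex IV (Cox4 to Cox8), complex V (Atp5) or cytochrome c (Cycs). Of 12393 genes with a symbol of their own on the array, 80 were members, held by 151 probe sets. Where a member had several probe sets, the brightest on average stands for it. Complex I had 32 members, complex II 4, complex III 9, complex IV 17, complex V 17, and Cycs stood alone. Ndufa4 was placed in complex IV, where its protein is now counted. The 7 probe sets that name several genes at once were left out, and no symbol of a mitochondrially encoded subunit is on the array. After the filter on dim probe sets 78 members could be tested, since Ndufb1 and Cox7c lay below it.

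Mice received ovalbumin (OVA, 100 ug, an allergen used in models of airway allergy) or saline on 3 days, and breathed filtered air, diesel exhaust at 500 ug/m3 (DE 500) or diesel exhaust at 2000 ug/m3 (DE 2000) with each of 5 exposure days lasting 4 hours. The 6 groups, of 4 arrays each, are air, DE 500 and DE 2000 with OVA, and air, DE 500 and DE 2000 with saline. Strain, age, sex and the route of OVA are not given in the labels, nor do they state whether replicates come from different animals, so the p-values measure the spread between these arrays. The number of arrays limits the precision of every value. Each array holds RNA of whole lung. Lung markers were bright throughout: the mean log2 signal of alveolar type II markers was at least 12.91 and that of club cell markers at least 13.22 on every array.

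Complexes I to IV pass electrons from NADH and succinate to oxygen, with cytochrome c carrying them between complexes III and IV, and complex V uses the resulting proton gradient to make ATP. Most subunits are encoded in the nucleus, and their genes are known to share binding sites for NRF1, for ETS factors such as GABPA and for YY1 near the transcription start. In lung, alveolar type II cells and ciliated cells are known as rich in mitochondria.

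The promoters of 4 members that rose with OVA at DE 2000 are shown because they carry such motifs. They come from RefSeq on build GRCm38.p6, run 5′ to 3′ on the gene's strand from 250 bases before to 50 bases after the first listed start, and have in capitals each match to the NRF1 core GCATGCG or the ETS core CCGGAAG on either strand (reverse complements CGCATGC and CTTCCGG).
Cycs, chr6:50566520-50566819, minus strand: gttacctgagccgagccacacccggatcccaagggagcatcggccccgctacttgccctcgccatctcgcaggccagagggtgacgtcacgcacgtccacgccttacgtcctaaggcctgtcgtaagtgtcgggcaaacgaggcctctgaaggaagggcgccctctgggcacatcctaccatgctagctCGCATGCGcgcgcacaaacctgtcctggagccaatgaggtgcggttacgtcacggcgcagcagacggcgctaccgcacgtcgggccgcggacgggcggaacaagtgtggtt
Sdhb, chr4:140961021-140961320, plus strand: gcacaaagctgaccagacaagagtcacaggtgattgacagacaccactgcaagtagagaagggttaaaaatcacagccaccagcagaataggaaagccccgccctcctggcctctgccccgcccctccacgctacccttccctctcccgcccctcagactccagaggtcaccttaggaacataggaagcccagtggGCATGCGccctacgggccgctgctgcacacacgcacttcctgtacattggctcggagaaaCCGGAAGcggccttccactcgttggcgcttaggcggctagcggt
Sdhd, chr9:50603800-50604099, minus strand: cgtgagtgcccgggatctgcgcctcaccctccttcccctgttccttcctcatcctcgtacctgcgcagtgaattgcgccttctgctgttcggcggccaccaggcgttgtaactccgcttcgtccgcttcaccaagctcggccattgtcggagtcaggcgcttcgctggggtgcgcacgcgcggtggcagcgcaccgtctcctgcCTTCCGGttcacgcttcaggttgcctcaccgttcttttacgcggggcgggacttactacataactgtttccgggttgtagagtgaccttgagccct
Cox8a, chr19:7217567-7217866, minus strand: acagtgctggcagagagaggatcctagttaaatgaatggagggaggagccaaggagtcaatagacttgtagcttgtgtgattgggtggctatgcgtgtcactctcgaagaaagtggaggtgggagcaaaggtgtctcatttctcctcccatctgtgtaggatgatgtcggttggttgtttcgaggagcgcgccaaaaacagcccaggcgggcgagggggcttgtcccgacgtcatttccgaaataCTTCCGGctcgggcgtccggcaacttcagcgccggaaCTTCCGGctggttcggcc

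In the Cycs promoter both orientations of the NRF1 core overlap, 60 and 61 bases before the start. Sdhb holds the NRF1 core 54 bases before the start and the ETS core at base 7 after it. The ETS core lies 46 bases before the start of Sdhd, and in Cox8a it lies 5 bases before the start and at base 33 after it. Of the 65 members with a promoter in the RefSeq table, 10 (15.4%) held the NRF1 core, against 3.64% of all 27025 promoters of the same length. The ETS core was in 16 (24.6%), against 9.12% of all promoters, and the YY1 core ATGGCGG (reverse complement CCGCCAT) was in 8 (12.3%), against 4.19%. At least one of the 3 motifs was in 29 member promoters (44.6%), against 15.2% of all promoters. A match is a description of the letters and not of binding.

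Values are MAS5 signals on the log2 scale, fold changes are log2 differences between group means, and ± gives the standard error of the fit unless SD is named. All arrays had been scaled to the same trimmed mean signal, 500.0 to 500.2, and pairs of arrays correlated between 0.88 and 0.96. The RNA quality controls differed between the arms. The log2 ratio of 3′ to 5′ signal, averaged over the control probe sets for Gapdh and actin (the 3′/5′ ratio, which is higher in degraded RNA), averaged 0.21 in the 12 OVA arrays and 1.84 in the 12 saline arrays. Replicate 4 of DE 2000 with OVA, at 2.02, stood apart from the other OVA arrays, which lay between -0.13 and 0.20. In DE 500 with saline, replicates 1 and 4 had 4.38 and 3.77, against 0.33 and 0.10 in replicates 2 and 3. Signal of the B1 repeat control averaged 11.55 in OVA arrays and 12.98 in saline arrays (log2).

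Averaged over its tested genes, complex I had log2 signals of 10.84 ± 0.15 in air, 10.80 ± 0.19 in DE 500 and 11.05 ± 0.15 in DE 2000 with OVA (SD, n = 4 arrays). With saline it had 11.08 ± 0.15 in air, 10.96 ± 0.28 in DE 500 and 11.08 ± 0.06 in DE 2000. Complexes III, IV and V were ordered alike, lowest in DE 500 with OVA and next lowest in air with OVA, with differences of the size of the spread. Complex II and cytochrome c differed from that order. Complex II averaged 10.81 ± 0.10, 10.81 ± 0.10 and 10.93 ± 0.09 in air, DE 500 and DE 2000 with OVA, against 10.61 ± 0.11, 10.54 ± 0.20 and 10.55 ± 0.15 in the matching saline groups. All 4 OVA arrays of complex II lay above all 4 saline arrays at DE 2000, and the arrays overlapped in air and at DE 500.

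**Figure D1:**
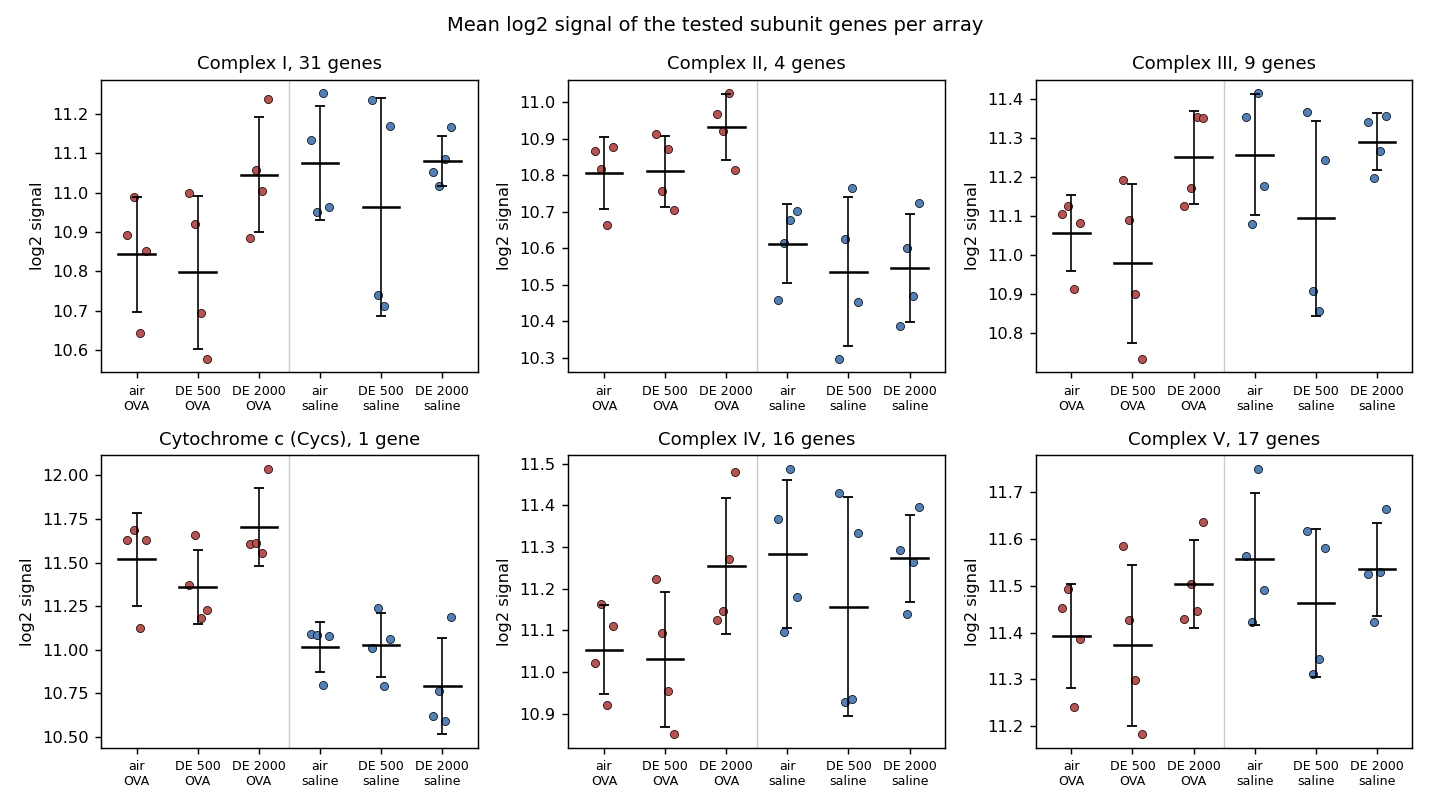
Mean log2 signal of the tested genes of each complex (y axis) on each array, by group (x axis), OVA in red and saline in blue; points are arrays, the black bar is the mean and the error bar the SD (n = 4). Complex II and Cycs were higher in OVA arrays, while complexes I, III, IV and V were lower in OVA arrays breathing air, 10.84 against 11.08 for complex I.

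OVA was compared with saline within each exposure. In air, 3 of 78 tested members were called at limma's Benjamini-Hochberg (BH) adjusted p below 0.05 (3.85%), while 14.8% of all 13575 tested probe sets were called. Cycs and Sdhd rose, where 7.62% of all probe sets did, and Ndufs7 fell, where 7.14% did. Of the tested members 21 lay above 0, with a median log2 fold change of -0.20, against -0.01 over all tested probe sets. At DE 500, 2 members were called (2.56%), Atp5b and Atp5g2, where 12.5% of all probe sets were called. Both were higher with OVA, as were 5.83% of all probe sets, while 6.64% of all probe sets and no member were lower. In this comparison 24 members lay above 0, with a median of -0.10 against 0.01 overall. That direction turned with the RNA quality settings: 57 lay above 0 with the 3′/5′ ratio as covariate (median 0.12), 55 with the B1 signal (0.10) and 55 without saline replicates 1 and 4 (0.07). At DE 2000, 6 members were called (7.69%), against 18.1% of all probe sets. Cycs, Sdhd, Sdhb and Cox8a rose, where 7.68% of all probe sets did, and Cox4i2 and Cox8c fell, where 10.4% did. Here 40 members lay above 0, with a median of 0.02 against -0.03 overall. This too depended on the fit, with 57 above 0 under the 3′/5′ covariate (median 0.13), 62 under the B1 covariate (0.27) and 33 without OVA replicate 4 (-0.05). In this fit over all 24 arrays the share of members called was below that of all probe sets in each comparison. Over the alternatives the called members ran from 0 to 17 in air, 0 to 20 at DE 500 and 2 to 12 at DE 2000. Calls over all probe sets ran from 28 to 3687, 48 to 3508 and 1258 to 3663 in the same order. The lower share thus describes this fit and is not a general result about the members. In bulk lung RNA, fewer cells of a type and less RNA per cell cannot be told apart.

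**Figure D2:**
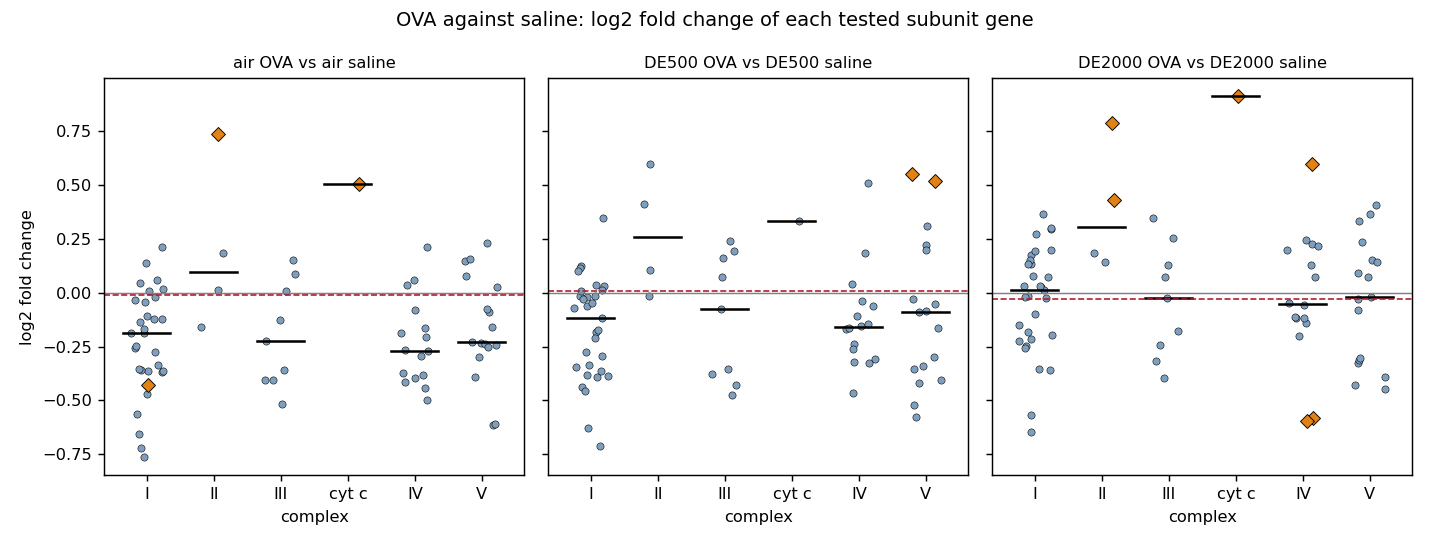
Log2 fold change of OVA over saline (y axis) of each of the 78 tested members, by complex (x axis), within air, DE 500 and DE 2000; the black bar is the median of a complex, the red dashed line the median of all tested probe sets, and orange diamonds are called members. Cycs and Sdhd had the highest values in air (0.50 and 0.74) and at DE 2000 (0.91 and 0.79), and most members of complexes I, III, IV and V lay below 0 in air and at DE 500. At DE 500 most of complexes I and IV lay above 0 instead with either RNA quality covariate or without the 2 high-ratio arrays, 23 of 31 and 13 of 16 in each case.

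Cycs, the mobile cytochrome c of somatic cells, which also triggers caspase activation when it leaves the mitochondrion, gave the largest called difference among the members. In air its log2 signals were 11.63, 11.68, 11.12 and 11.63 in OVA lungs, against 11.09, 11.09, 10.80 and 11.08 in saline lungs. At DE 500 they were 11.37, 11.66, 11.18 and 11.23 with OVA, against 11.01, 11.24, 10.79 and 11.06 with saline. At DE 2000 they were 11.61, 11.61, 11.56 and 12.04 with OVA, against 10.62, 10.77, 10.59 and 11.19 with saline. The arrays did not overlap in air or at DE 2000 and overlapped at DE 500. Replicate 3 was the lowest array in all 6 groups. The log2 fold change was 0.50 ± 0.16 in air (limma adjusted p = 0.0351), 0.33 ± 0.16 at DE 500 (limma adjusted p = 0.146) and 0.91 ± 0.16, or 1.88-fold, at DE 2000 (limma adjusted p = 0.000411). The call at DE 2000 held in 21 of 21 alternatives (other scalings, filters, designs and covariates, and arrays left out), where the fold change lay between 0.80 and 1.04. In air it was lost in 8 of 21, namely with median scaling (0.38), with either RNA quality covariate, where the fold change was 0.54 in each and so no smaller, and on leaving out air OVA replicate 1, 2 or 4 or air saline replicate 1 or 3 (limma adjusted p from 0.0603 to 0.130 without one of these arrays). The size of the difference in the OVA effect between DE 2000 and air, 0.41 ± 0.22, did not pass the test of the interaction (limma adjusted p = 0.875). A second Cycs probe set gave 0.77 in air (limma adjusted p = 0.0110), 0.58 at DE 500 (limma adjusted p = 0.0411) and 0.96 at DE 2000 (limma adjusted p = 0.001). The remaining Cycs probe set gave 0.20, 0.00 and 0.29, none of them called.

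Complex II, succinate dehydrogenase, is also an enzyme of the TCA cycle and has 4 subunits, all encoded in the nucleus. Sdhd, a membrane anchor subunit that helps to bind ubiquinone, rose with OVA in air and at DE 2000. Its log2 signals in air were 10.20, 10.04, 9.67 and 10.24 with OVA, against 8.80, 9.35, 9.34 and 9.73 with saline. At DE 500 they were 10.37, 9.85, 9.95 and 9.92 with OVA, against 8.93, 9.53, 9.88 and 9.36 with saline. At DE 2000 they were 10.45, 10.19, 10.02 and 10.20 with OVA, against 8.94, 9.48, 9.36 and 9.92 with saline. The groups were separate at DE 2000 and overlapped at DE 500 and in air. The fold changes were 0.74 ± 0.22 in air (limma adjusted p = 0.0279), 0.60 ± 0.22 at DE 500 (limma adjusted p = 0.0661) and 0.79 ± 0.22 at DE 2000 (limma adjusted p = 0.0145). The second Sdhd probe set gave 0.65 in air, -0.46 at DE 500 and -0.07 at DE 2000, none of them called, so the probe sets of this gene disagree outside air. With the B1 signal as a covariate the DE 2000 value was 0.36 (limma adjusted p = 0.492), and without DE 2000 saline replicate 1 it was 0.63 (limma adjusted p = 0.0630). In air the call was lost in 8 of 21 alternatives, including the 3′/5′ covariate (0.51, limma adjusted p = 0.228) and leaving out air OVA replicate 1, 2 or 4 or air saline replicate 1 or 3 (limma adjusted p from 0.0517 to 0.102).

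Sdhb, the iron-sulfur subunit that hands electrons towards ubiquinone, rose with OVA at DE 2000. Its signals there were 11.43, 11.84, 11.84 and 11.71 with OVA, against 11.18, 11.28, 11.23 and 11.41 with saline, without overlap. The fold change was 0.43 ± 0.13 (limma adjusted p = 0.0230). In air it was 0.01 ± 0.13 and at DE 500 0.11 ± 0.13, neither called. The call at DE 2000 was lost in 7 of 21 alternatives, with limma adjusted p no higher than 0.0781, among them leaving out DE 2000 OVA replicate 2 or 3 or DE 2000 saline replicate 1 or 3 (0.0565 to 0.0710). Sdha, the flavoprotein that oxidizes succinate, gave -0.16 ± 0.11, -0.01 ± 0.11 and 0.18 ± 0.11 in air, at DE 500 and at DE 2000, and the other anchor, Sdhc, gave 0.18 ± 0.19, 0.41 ± 0.19 and 0.14 ± 0.19. None of these passed the test. In air the 4 Sdhc arrays with OVA, 10.65, 10.63, 10.67 and 10.65, nevertheless all lay above the saline arrays at 10.45, 10.55, 10.40 and 10.47. At DE 500 Sdhc was 10.55 to 10.86 with OVA, against 9.66 and 9.90 in saline replicates 1 and 4, the arrays with high 3′/5′ ratios, and 10.73 and 10.94 in the other saline arrays. The median fold change of the 4 complex II genes moved with the RNA quality covariates. In air it was 0.10 without them, -0.02 with the 3′/5′ ratio and -0.05 with the B1 signal. In the same order it was 0.26, 0.12 and 0.07 at DE 500, and 0.31, 0.35 and 0.23 at DE 2000.

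**Figure D3:**
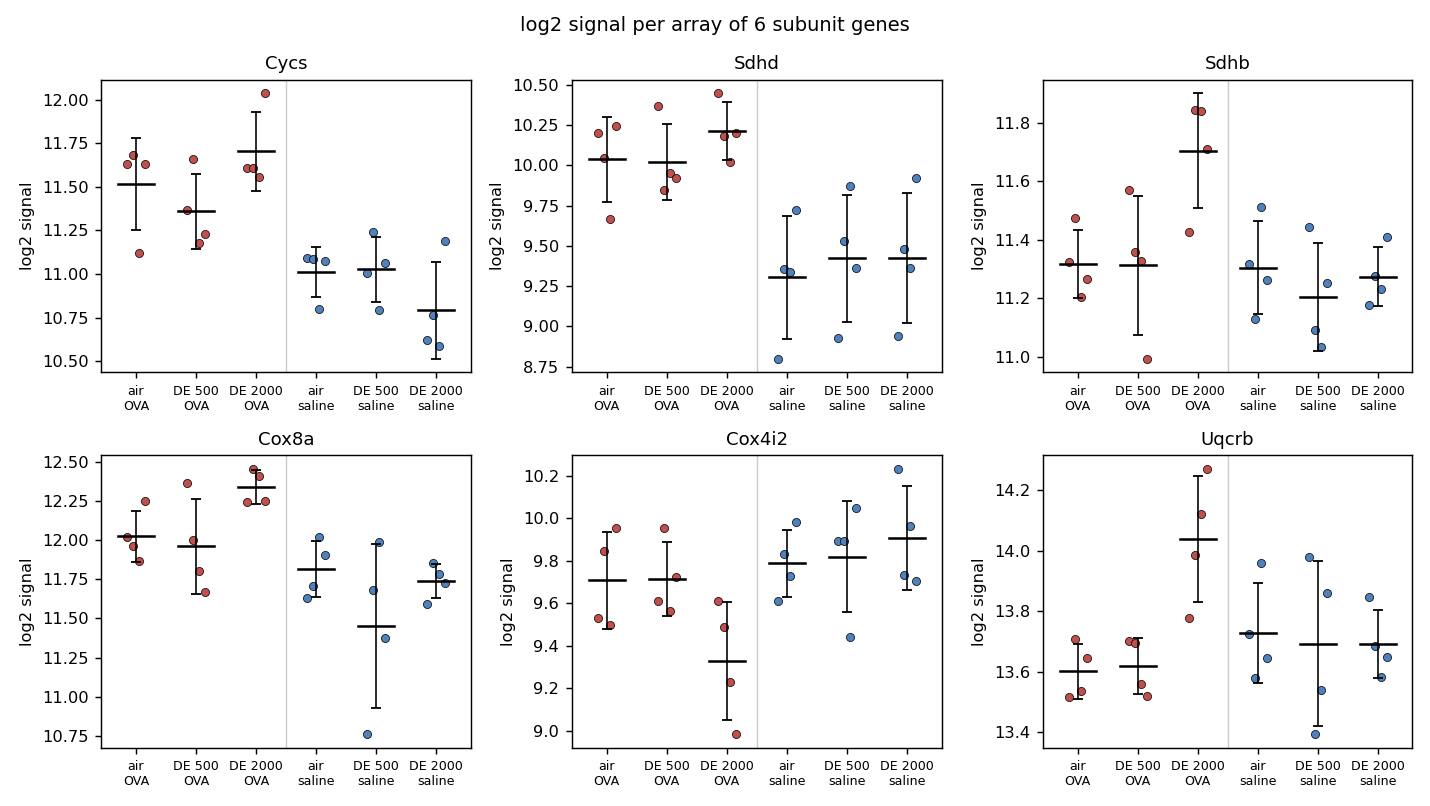
Log2 signal (y axis) of Cycs, Sdhd, Sdhb, Cox8a, Cox4i2 and Uqcrb on each array, by group (x axis), OVA in red and saline in blue; points are arrays, the black bar is the mean and the error bar the SD (n = 4). In DE 2000 with OVA, Cox4i2 lay between 8.98 and 9.61 and Uqcrb between 13.78 and 14.27, while the mean of Cycs was 11.70 with OVA and 10.79 with saline at DE 2000.

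Complex IV, cytochrome c oxidase, held the remaining calls at DE 2000, in opposite directions. Cox8a, the form of subunit VIII found in most tissues, was at 12.24, 12.45, 12.41 and 12.25 with OVA, against 11.59, 11.85, 11.78 and 11.73 with saline. It rose by 0.60 ± 0.18 (limma adjusted p = 0.0270), and its second probe set by 0.98 (limma adjusted p = 0.00113). With the B1 signal as a covariate the value of the first was 0.05 (limma adjusted p = 0.930), and with the 3′/5′ ratio 0.43 (limma adjusted p = 0.0658). The call was also lost without DE 2000 OVA replicate 2 or 3 or DE 2000 saline replicate 1, 3 or 4 (limma adjusted p from 0.0503 to 0.0736). In air Cox8a gave 0.21 ± 0.18 and at DE 500 0.51 ± 0.18, neither called. At DE 2000, 6 members had all OVA arrays above all saline arrays, where 7.81% of all probe sets did, namely Cycs, Sdhb, Sdhd, Cox8a, Atp5g2 and Atp5h. Below lay 8 members, where 11.2% of all probe sets did, among them Cox4i2, Cox8c, Atp5l and Ndufs7.

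Cox4i2, the isoform of subunit IV that is enriched in lung and raised by hypoxia, was at 9.61, 9.49, 9.23 and 8.98 in DE 2000 lungs with OVA, against 10.23, 9.73, 9.96 and 9.70 with saline. It fell by 0.58 ± 0.16 (log2, limma adjusted p = 0.0164), and the arrays did not overlap. The partner isoform Cox4i1, used in most tissues, gave -0.20 ± 0.16 and was not called. Without DE 2000 saline replicate 1 the Cox4i2 value was -0.47 (limma adjusted p = 0.0675), and with the B1 covariate -0.62 (limma adjusted p = 0.108). Cox8c, a form of subunit VIII known mainly from testis, was at 9.21, 9.06, 9.41 and 8.92 with OVA, against 9.84, 9.71, 9.91 and 9.51 with saline. It fell by 0.60 ± 0.15 (log2, limma adjusted p = 0.00852) and was called in 21 of 21 alternatives. In air and at DE 500, Cox4i2 gave -0.08 ± 0.16 and -0.11 ± 0.16 and Cox8c 0.06 ± 0.15 and -0.06 ± 0.15, none of them called.

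The other isoform pairs of complex IV gave no call for OVA. At DE 2000 the muscle form Cox6a2 gave 0.24 ± 0.22 and the widely expressed Cox6a1 0.13 ± 0.17. Cox7a1, another muscle form, gave -0.05 ± 0.31 and its partner Cox7a2 0.22 ± 0.16. Cox8b, expressed in heart and muscle, gave -0.06 ± 0.22, the testis form Cox6b2 0.23 ± 0.19 and its partner Cox6b1 -0.12 ± 0.22. Ndufa4 gave 0.20 ± 0.13. In air Cox6b1 gave -0.44 ± 0.22 (limma adjusted p = 0.173) and Cox6b2 -0.27 ± 0.19. Cardiac muscle markers gave a median of -0.01 at DE 2000 and -0.16 in air, with 8 and 6 of 17 tested genes above 0. At DE 2000 they ran from -1.65 to 0.62, and 2 were called lower, where 10.4% of all probe sets were. Their mean log2 level was 8.86 to 10.45 in DE 2000 arrays with saline and 9.60 to 10.09 with OVA.

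In complex V, Atp5b, the catalytic beta subunit, was at 12.38, 12.31, 12.19 and 12.44 in DE 500 lungs with OVA, against 11.35, 12.12, 12.10 and 11.55 with saline. Atp5g2, which encodes a copy of the proton-carrying c subunit, was at 11.53, 11.40, 11.17 and 11.05 with OVA, against 10.39, 11.21, 11.16 and 10.30 with saline. In both genes the low saline arrays were replicates 1 and 4, those with 3′/5′ ratios of 4.38 and 3.77. The fold changes were 0.55 ± 0.17 for Atp5b (limma adjusted p = 0.0378) and 0.52 ± 0.17 for Atp5g2 (limma adjusted p = 0.0446). At DE 500 Atp5b was the 1 member whose OVA arrays all lay above the saline arrays, as 7.15% of all probe sets did, and none lay wholly below, as 8.28% did. Without the 2 high-ratio arrays the fold changes were 0.22 (limma adjusted p = 0.792) and 0.10 (limma adjusted p = 0.909). Each call was lost in 12 of 21 alternatives, also on leaving out DE 500 saline replicate 1 alone (0.41 for Atp5b and 0.40 for Atp5g2), saline replicate 4 alone (0.47 and 0.37), or OVA replicate 1, 2 or 3, or, for Atp5b, 4 (limma adjusted p from 0.0583 to 0.117). Atp5l, subunit g of the membrane part, gave -0.30 ± 0.12 in air, -0.34 ± 0.12 at DE 500 and -0.31 ± 0.12 at DE 2000, with limma adjusted p of 0.0791, 0.0533 and 0.0630.

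Ndufs7, a core iron-sulfur subunit of complex I close to the ubiquinone site, was at 10.79, 10.84, 10.57 and 10.89 in air with OVA, against 11.27, 10.94, 11.52 and 11.08 in air with saline. It fell by 0.43 ± 0.14 (log2, limma adjusted p = 0.0390), without overlap of the arrays. The call was lost in 9 of 21 alternatives: with the 3′/5′ covariate (-0.30, limma adjusted p = 0.273), with the B1 covariate, without the filter, and without any one air OVA array or air saline replicate 1 or 3 (limma adjusted p from 0.0569 to 0.165). The second Ndufs7 probe set gave -0.68 (limma adjusted p = 0.0931). Accessory subunits at the low end, Ndufb7 at -0.76 ± 0.30 and Ndufa2 at -0.72 ± 0.26, were not called. In air 19 members had all 4 OVA arrays below all 4 saline arrays, where 13.8% of all probe sets did, and 4 members (Atp5j, Cycs, Ndufs4 and Sdhc) had them above, where 15.3% did. Of the 19, 8 belong to complex I, 5 to complex V, 5 to complex IV and 1, Uqcrh, to complex III.

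In air, where the median of the members was low, the RNA quality measures differed as well. The 3′/5′ ratio was 0.08 ± 0.10 in air with OVA and 1.74 ± 0.83 in air with saline (SD, n = 4 each). The ranges, -0.03 to 0.20 with OVA and 0.98 to 2.90 with saline, do not overlap, so ratio and OVA cannot be told apart in these arrays. When the ratio was fitted as a covariate the members' median in air was -0.02 with 34 of 78 above 0. With the B1 signal as a covariate it was -0.01 with 38 above 0. No member was called in either fit, but calls over all probe sets moved as well, from 28 to 3687 over the alternatives. Without the share of all probe sets in these fits, the lack of called members is not a result about the members. Cytosolic ribosomal proteins, with 3 of 17 above 0 and a median of -0.19, and glycolysis genes, with 5 of 17 and -0.20, lay on the same side in air. Within the DE 500 saline group the mean of the members was 11.32 and 11.26 in replicates 1 and 4, of high ratio, against 10.92 and 10.92 in replicates 2 and 3. There 62 of 78 members, which share these arrays, were higher in the high-ratio arrays. The median difference was 0.36, against -0.06 over all tested probe sets. With so few arrays on each side, the ratio cannot be told apart from other differences between them. The cause of the low median with OVA in air was not tested.

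**Figure D4:**
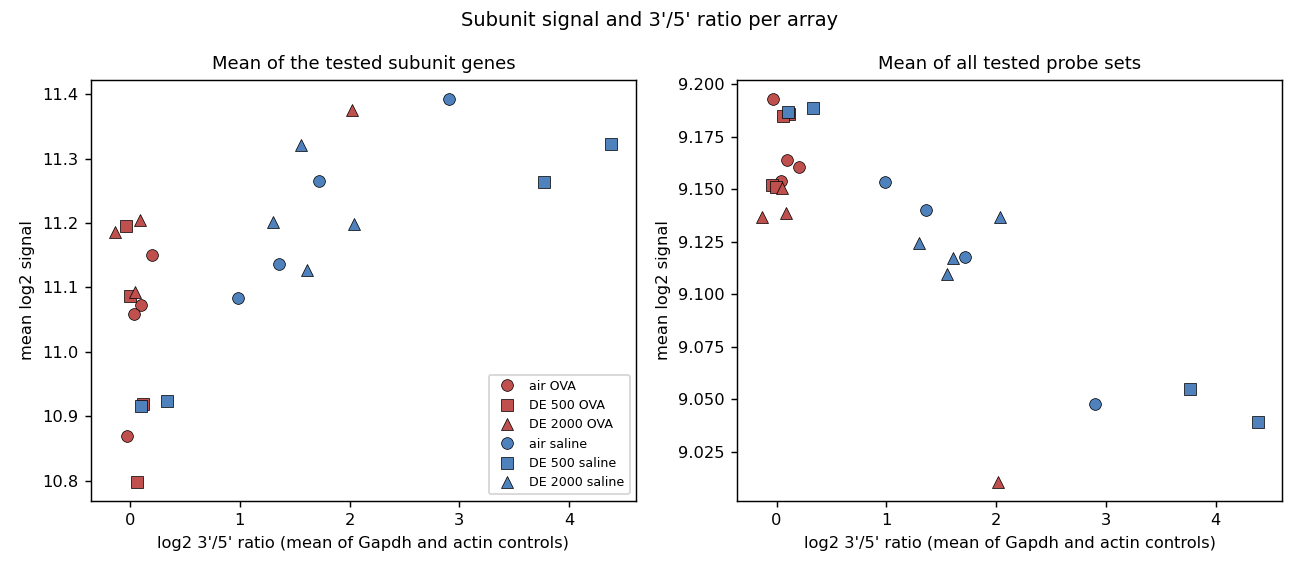
Mean log2 signal (y axis) of the tested members (left) and of all tested probe sets (right) on each array, against the array's log2 3′/5′ ratio (x axis), OVA in red and saline in blue, with circles for air, squares for DE 500 and triangles for DE 2000. Within DE 500 with saline the arrays at ratios of 4.38 and 3.77 have member means of 11.32 and 11.26, above the 10.92 of the other replicates, while the mean of all probe sets runs the other way.

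Exhaust was compared with air in OVA lungs. At DE 2000, 0 of 78 members were called by limma, where 0.0221% of all tested probe sets were. At an unadjusted p below 0.05, 7 members passed, where 8.13% of all probe sets did. The fold changes nevertheless leaned one way: 68 of 78 members lay above 0 and the median was 0.18, against -0.04 over all tested probe sets. The members are brighter than that background, which was not matched for signal: in air with OVA they averaged 11.04, against 9.17 over all tested probe sets. Of the other lists given below, cytosolic ribosomal proteins and glycolysis genes leaned alike, and assembly factors did not. Complex I had 28 of 31 above 0 (median 0.17), complex III 8 of 9 (0.19), complex IV 14 of 16 (0.24), complex V 14 of 17 (0.10) and complex II 3 of 4 (0.09). The mean of the tested members was 11.09, 11.19, 11.20 and 11.38 in DE 2000 arrays and 11.07, 11.15, 10.87 and 11.06 in air arrays, so the groups overlapped.

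Uqcrb, a small accessory subunit of complex III near the ubiquinone site, had the smallest p of the members here. It was at 13.78, 13.98, 14.12 and 14.27 in DE 2000 arrays, against 13.52, 13.71, 13.54 and 13.64 in air arrays, all with OVA. The difference of 0.44 ± 0.12 did not pass (limma adjusted p = 0.492), and the second Uqcrb probe set gave 0.01. Sdhb was at 11.43, 11.84, 11.84 and 11.71, against 11.32, 11.48, 11.20 and 11.26 in air, a difference of 0.39 ± 0.13 (limma adjusted p = 0.517). Cox7a2 gave 0.44 ± 0.16, the accessory complex I subunit Ndufa3 0.35 ± 0.15 and the core iron-sulfur subunit Ndufs8 0.55 ± 0.24, with limma adjusted p of 0.556, 0.593 and 0.593. Cox4i2 ran the other way, at -0.38 ± 0.16 (limma adjusted p = 0.593). All 4 DE 2000 arrays lay above all 4 air arrays for 6 members, Atp5h, Atp5o, Ndufa3, Ndufs8, Uqcrb and Uqcrh, and below for none, where 2.28% of all probe sets lay above and 2.06% below. The genes at the ends of each complex's range of signal gave 0.15 ± 0.13 (Ndufa1), 0.16 ± 0.16 (Uqcrfs1, the Rieske protein), 0.10 ± 0.12 (Atp5g3) and 0.02 ± 0.19 (Atp5md), and Cyc1, cytochrome c1, gave 0.19 ± 0.14.

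Replicate 4 of DE 2000 with OVA, the array with a 3′/5′ ratio of 2.02, had the highest member mean of the group. Without it, 67 of 78 members lay above 0 with a median of 0.13, and the median of all probe sets was -0.01. Fitting the 3′/5′ ratio as covariate left 67 above 0, again with a median of 0.13. With the B1 signal as a covariate 13 members were called, all higher with exhaust, among 974 probe sets called in all. Uqcrb (0.52, limma adjusted p = 0.00874), Cox7a2 (0.54, limma adjusted p = 0.0168) and Ndufs8 (0.72, limma adjusted p = 0.0183) had the smallest adjusted p of these. The B1 signal itself differed with exhaust in OVA lungs. It was 11.06, 10.98 and 10.85 in DE 2000 replicates 1 to 3, below the air range of 11.31 to 11.93, and 12.43 in replicate 4. B1 signal and exhaust are thus not independent in this fit. Scaling arrays to a common median moved the median of all tested probe sets to 0.07 and that of the members to 0.28.

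**Figure D5:**
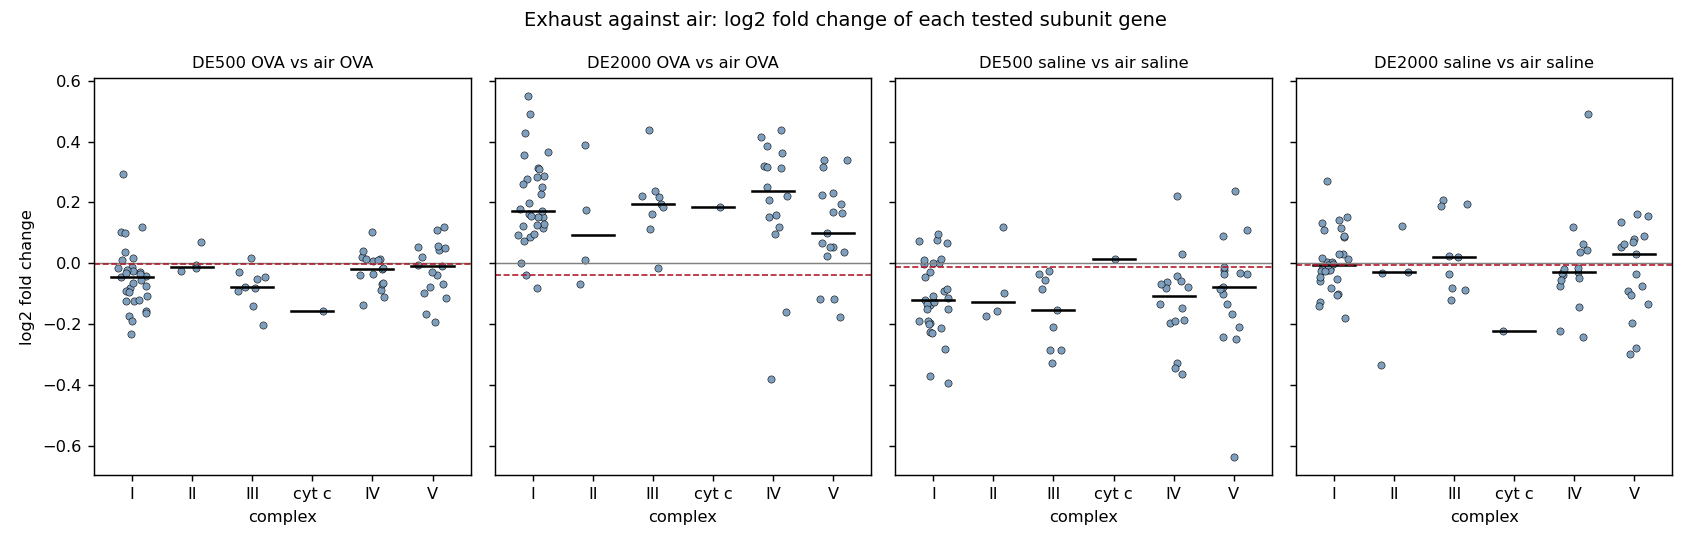
Log2 fold change of exhaust over air (y axis) of each of the 78 tested members, by complex (x axis), with OVA (2 panels at left) and with saline (2 panels at right); the black bar is the median of a complex and the red dashed line the median of all tested probe sets. At DE 2000 with OVA 68 of 78 members lay above 0, at DE 500 with saline 15 did, and no member was called in any panel.

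At DE 500 with OVA, 0 members were called against air with OVA, and 0% of all probe sets. No member had an unadjusted p below 0.05 in limma, where 0.921% of all probe sets did. Of the members 23 lay above 0, and the median was -0.04 against 0.00 overall. Single arrays turned this: without DE 500 replicate 4, 57 lay above 0 (median 0.03), and without air replicate 2, 44 did (median 0.01), while without DE 500 replicate 1 it was 11 (median -0.11) and without DE 500 replicate 2 or air replicate 3 it was 15 or 13. The smallest p belonged to Ndufb5, at -0.23 ± 0.14, Uqcrfs1 at -0.20 ± 0.16, Ndufv2 at -0.16 ± 0.13 and Ndufa6 at -0.17 ± 0.15. The member mean in these OVA groups was 10.87 to 11.15 in air, 10.80 to 11.19 at DE 500 and 11.09 to 11.38 at DE 2000. For no member did the 4 DE 500 arrays lie all above or all below the air arrays, as 0.751% and 0.744% of all probe sets did.

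In saline lungs DE 2000 gave 0 called members against air, where 0.147% of all probe sets were called, and 2 members at an unadjusted p below 0.05, where 5.94% of all were. The median was -0.02 with 34 of 78 above 0, against -0.01 overall. Its sign was not stable, with 54 above 0 without air replicate 3, 48 without DE 2000 replicate 2 and 57 with array weights. One of the 2 was Cox8c, at 9.84, 9.71, 9.91 and 9.51 in DE 2000 arrays, against 9.50, 9.01, 9.29 and 9.22 in air arrays, without overlap. It was alone among members in lying wholly above, as 2.7% of all probe sets did, and none lay wholly below, as 1.61% did. Its difference was 0.49 ± 0.15 (limma adjusted p = 0.297). The other was Sdha, at 10.99, 11.29, 10.98 and 10.91, against 11.27, 11.42, 11.46 and 11.35 in air, a difference of -0.33 ± 0.11 (limma adjusted p = 0.329). Atp5b and Atp5g2 came next, at -0.30 ± 0.17 and -0.28 ± 0.17. The DE 2000 saline arrays also enter the comparison of OVA with saline, so the Cox8c values of both comparisons share them.

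DE 500 with saline gave 0 called members against air with saline, where 0.00737% of all probe sets were called, and 5 members at an unadjusted p below 0.05, where 7.9% of all were. Of the members 15 lay above 0, with a median of -0.11 against -0.01 overall. Without replicates 1 and 4, of high 3′/5′ ratio, 11 lay above 0 with a median of -0.29. Without DE 500 replicate 2 or 3 the median was -0.03 or -0.02, with 35 or 37 above 0, and without air replicate 3 it was -0.04. Leaving out DE 500 replicate 1 gave -0.19, and array weights gave -0.01. Atp5g2 was at 10.39, 11.21, 11.16 and 10.30 in DE 500 arrays, against 11.42, 11.36, 11.64 and 11.18 in air, a difference of -0.64 ± 0.17 (limma adjusted p = 0.236). The low values again belonged to the high-ratio replicates 1 and 4. Ndufa3 was at 11.70, 11.67, 11.81 and 11.72, against 12.20, 11.99, 12.48 and 11.81 in air, all DE 500 arrays being lower by a narrow margin, a difference of -0.39 ± 0.15 (limma adjusted p = 0.446). With Atp5c1 and Uqcrfs1 it made 3 members wholly below air, where 1.84% of all probe sets were, and none lay wholly above, where 1.61% were. The core proteins of complex III, Uqcrc2 and Uqcrc1, gave -0.29 ± 0.11 and -0.33 ± 0.16. Atp5mpl, a small subunit of complex V, was the 1 of the 5 that lay higher, at 0.24 ± 0.11 (limma adjusted p = 0.630). The arrays of this group differed: the member means of replicates 2 and 3 lay at 10.92, below the air range of 11.08 to 11.39, and those of replicates 1 and 4 within it.

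Whether exhaust acted differently in OVA and saline lungs was tested as an interaction. At DE 2000 no member passed, where 0% of all probe sets did, and 7 members had an unadjusted p below 0.05, where 6.11% of all did. The difference of differences lay above 0 for 67 of 78 members, with a median of 0.18, against -0.02 over all tested probe sets. Over the alternatives 58 to 75 lay above 0 and the median ran from 0.08 with array weights to 0.31 with median scaling, which moved the median of all probe sets to 0.10. Cox8c gave -0.65 ± 0.21 (limma adjusted p = 0.518), Uqcrb 0.47 ± 0.18 (limma adjusted p = 0.665), Ndufa3 0.48 ± 0.21, Sdha 0.34 ± 0.15 and Sdhb 0.42 ± 0.18 (limma adjusted p = 0.779 for each of the last 3). With the B1 covariate, which differed with exhaust in OVA lungs as given above, Ndufs8 and Uqcrb were called (1.01 and 0.61). Calls over all probe sets for this interaction ran from 0 to 181 over the alternatives, so these calls alone are not a result about the members. The second Uqcrb probe set gave almost no difference between DE 2000 and air in OVA lungs, as given above. At DE 500 no member passed, and 0% of all probe sets, with 1 member at an unadjusted p below 0.05, where 3.09% of all were. That member was Atp5g2, at 0.60 ± 0.24. The others with the smallest p were Atp5c1 at 0.29 ± 0.18, Ndufb8 at 0.66 ± 0.43 and Ndufa3 at 0.31 ± 0.21.

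Among the members, 40 had a second tested probe set. It had the sign of the first in 37 of 40 genes for DE 2000 with OVA against air with OVA, with medians of 0.22 and 0.21, and in 28 of 40 for OVA against saline in air. The sign was shared by 26 of 40 genes for OVA against saline at DE 2000, where the medians of first and second probe sets were 0.07 and -0.07, with 22 and 14 above 0, and by 20 of 40 for DE 2000 against air with saline. No gene had probe sets called in opposite directions. Probe sets whose design allows cross-hybridization (suffix x_at) shared the lean on the whole array: 72.4% of all 1042 tested ones lay above 0 at DE 2000 with OVA, against 39.1% of the 8822 gene-specific ones. Of the members' own probe sets 24 of 26 of the first kind and 50 of 57 of the gene-specific kind lay above 0.

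After each gene was centred on its group means, the members varied together across arrays. The Pearson correlation of a member with the mean of the others over 24 arrays had a median of 0.70 and was above 0 for 66 of 78, against a median of -0.06 for the 8237 other genes tested. These points share the arrays, and with them the RNA quality described above. Ndufb7 had the highest value (0.97). Values below 0 belonged to 12 members, lowest in Sdhc (-0.69), Atp5a1 (-0.42) and Atp5b (-0.38), and included Sdha, Sdhd, Cox8a, Cox8c and Atp5g2. The genes outside the set most like the member mean were Gstp1 (0.93), Trmt112 (0.92), Rnf181 (0.92), Hcfc1r1 (0.92) and Cnn2 (0.92).

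Other mitochondrial gene lists were set beside the members. For OVA over saline at DE 2000, where 7.68% of all probe sets rose and 10.4% fell, 3 of 17 TCA cycle genes rose and 1 fell. Idh3a and Idh2, of 2 isocitrate dehydrogenases, rose by 1.18 (limma adjusted p = 0.000833) and 0.93 (limma adjusted p = 0.000825). Dld, a subunit shared by several dehydrogenase complexes, rose by 1.44 (limma adjusted p = 0.00274), and Ogdh, of the 2-oxoglutarate dehydrogenase complex, fell by 0.49 (limma adjusted p = 0.00972). Of 31 assembly factors 3 rose, a share near that of all probe sets, the complex IV factors Coa6 (0.51) and Surf1 (0.47) and the complex I factor Tmem126a (0.53). Of 27 carrier, channel and inner membrane genes 5 rose, among them the porin Vdac2 (0.44) and Chchd3 (0.70). Of 15 regulators of mitochondrial biogenesis 3 fell: Nrf1, whose product binds the motif searched above, by 1.19 (limma adjusted p = 0.000349), the coactivator Ppargc1b by 1.20 and the mitochondrial DNA polymerase Polg by 0.38. Nrf1 also fell with OVA in air, by 0.72 (limma adjusted p = 0.0223), and at DE 500, by 0.63 (limma adjusted p = 0.0431). Idh3a rose in air by 0.97 and at DE 500 by 1.01 (limma adjusted p = 0.00952 and 0.00681). The OVA and saline arrays differ in RNA quality as given above, and its part in the values of these lists was not tested.

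For DE 2000 over air in OVA lungs limma called none of the genes of these lists. Cytosolic ribosomal proteins had 15 of 17 above 0 (median 0.19) and glycolysis genes 14 of 17 (0.18), values like those of the members, against 11 of 17 TCA cycle genes (0.06), 17 of 27 carriers (0.09), 12 of 31 assembly factors (-0.02) and 5 of 15 regulators (-0.08). Alveolar type II markers had 8 of 9 above 0 (median 0.20, from -0.74 to 0.36), club cell markers 6 of 7 (median 0.25, from -0.02 to 0.33) and ciliated cell markers 1 of 3 (median -0.01, from -0.40 to 0.21). The mean log2 level of club cell markers ran from 13.50 to 13.74 in DE 2000 arrays and from 13.22 to 13.48 in air arrays, and that of alveolar type II markers averaged 13.19 in DE 2000 arrays and 13.09 in air arrays, where the arrays overlapped. Their part in the members' values was not tested.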

How the data were processed

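Total RNA of frozen mouse lung was labelled and hybridised to Affymetrix arrays, 24 in all, in 6 groups of 4 taken from the sample titles. The deposited values are MAS5 signal intensities, made by the authors with MAS5 per the submitters' processing notes; no version of the software is named there. The file shows that every array was scaled to the same trimmed mean. From the 22690 probe sets 64 controls were removed. Of the rest 20380 named 1 gene in the platform annotation, 691 several and 1555 none. No pseudocount was added before taking log2, and probe sets with a mean above the 40th percentile (log2 signal 7.11) were tested, 13575 in all, for 8315 genes. limma 3.58.1 in R 4.3.3 fitted 1 mean per group over all 24 arrays (lmFit, eBayes with a variance trend). All tests are two-sided, with Benjamini-Hochberg adjustment over all tested probe sets and calls at an adjusted p-value below 0.05. The script was tested on simulated data. Python 3.11.15, pandas 2.3.3 and matplotlib 3.10.9 made the summaries and plots.

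The 9 comparisons were exhaust over air in each arm and dose, OVA over saline at each exposure, and the interaction at each dose. Named genes are every called member, the 4 members with the smallest p in each comparison, the ends of each complex's signal range, the tissue isoform pairs, Cycs, Cyc1 and the Sdh genes, and up to 4 genes per other list. The members and lists were chosen with earlier results of these data known. Alternatives were quantile and median scaling, other filters, a pseudocount of 50, other designs, array weights, RNA quality covariates and arrays left out. Same-numbered replicates were checked for pairing: over 60 pairs of arrays their deviations correlated by 0.03 on average, between -0.43 and 0.59, so the numbers were not taken as pairs. This average over tested probe sets cannot exclude a pattern by replicate number in single genes. Cycs was lowest in replicate 3 of all 6 groups. Those values were 11.12, 11.18 and 11.56 in air, DE 500 and DE 2000 with OVA, and 10.80, 10.79 and 10.59 with saline.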

Additional observations from a re-analysis of the deposited data

Results flagged for a closer look

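In 3 of 132 groups of 4 arrays examined, one array lay far from the other 3 by Dixon's criterion, all for Cycs; chance flags about 1 in 20 groups. In DE 2000 with OVA, replicate 4 had a log2 signal of 12.04, and the nearest array had 11.61. In air with OVA, replicate 3 had 11.12, and the nearest array had 11.63. In air with saline, replicate 3 had 10.80, and the nearest array had 11.08. The DE 2000 array is also the one with a 3′/5′ ratio of 2.02; its part in the Cycs value was not tested beyond leaving it out, which kept the call.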

How the results depend on the processing

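Of the 11 called values described for single members, Cycs and Cox8c at DE 2000 kept their call in every alternative run, and none of the 11 changed direction. Of 231 values under alternatives, 163 stayed on the same side of the threshold and 68 lost the call. Counts of called members moved as follows, and the cause was not tested. The count over all probe sets moved as well, over the ranges given below. Without its share in each setting, these member counts are not a result about the members. For OVA in air (3 called), the count was 5 with quantile normalization, 1 with median scaling, 17 with only the groups compared, 9 with array weights, 0 with the 3′/5′ or the B1 covariate, 15 without the 2 arrays of high Gapdh ratio, and 5 of 40 with second probe sets. For OVA at DE 500 (2 called), it was 0 with median scaling, without a filter, with only the groups compared, with either covariate and without the high-ratio arrays, 7 with array weights and 1 without the variance trend. For OVA at DE 2000 (6 called), it was 12 with array weights, 12 with the B1 covariate and 11 without the high-ratio arrays. For DE 2000 over air it was 1 with array weights in saline lungs and 13 with the B1 covariate in OVA lungs, and the DE 2000 interaction had 2 with the B1 covariate. Leaving out one array at a time gave 0 to 5 called members for OVA in air, 0 to 20 at DE 500 (20 without DE 500 saline replicate 3 and 15 without replicate 2) and 2 to 11 at DE 2000 (2 without DE 2000 saline replicate 1 and 11 without DE 2000 OVA replicate 4), and 0 for every exhaust and interaction comparison. The replicate block gave 3, 2 and 6 called members for OVA in air, at DE 500 and at DE 2000 and changed no other count. The array weights stopped before they converged. Median scaling moved the median of all probe sets to -0.13 for OVA in air, with members at -0.32. Over all probe sets, counts called ran from 28 to 3687 for OVA in air (2004), 48 to 3508 at DE 500 (1693), 1258 to 3663 at DE 2000 (2454), 4 to 138 for DE 2000 over air with saline (20), 0 to 101 for DE 500 over air with saline (1), 0 to 974 for DE 2000 over air with OVA (3), 0 to 181 for the DE 2000 interaction (0) and 0 to 10 for the DE 500 interaction (0). The number of members above 0 in the alternatives that kept all members ran from 62 to 73 for DE 2000 over air with OVA, 11 to 57 for DE 500 over air with OVA, 24 to 57 and 7 to 37 for DE 2000 and DE 500 over air with saline, 10 to 38, 18 to 57 and 33 to 62 for OVA in air, at DE 500 and at DE 2000, and 58 to 75 and 30 to 62 for the interactions at DE 2000 and DE 500. The majority thus changed sides for DE 500 over air with OVA, DE 2000 over air with saline, OVA at DE 500 and at DE 2000, and the DE 500 interaction. With 4 arrays a group, Ndufb1 and Cox7c below the filter and no probe set annotated with the symbol of a mitochondrially encoded subunit, small differences were not detectable.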
